A study of Mus musculus with 40 samples.

Results

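The mitosis genes described here are 35 genes of cell division: mitotic cyclins and their kinase, entry kinases, the chromosomal passenger complex, the spindle checkpoint, anaphase promotion, centromere proteins, spindle motors and cytokinesis factors. The set is a list of gene names, and each of the 35 was found among the 23228 gene symbols listed in all 8 RNA files. All 35 passed the filter for testing, as did 13198 genes in all. The filter asked for 1 RPKM (reads scaled to gene length and library depth) in at least 2 libraries. The lowest value of any member in any library was 7.48 RPKM, for Cdc25b, so no member passed through only 1 group.

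Cells enter mitosis when cyclin B and cyclin A switch on the kinase Cdk1, which the Cdc25 phosphatases activate. Aurora and Polo kinases then drive spindle assembly, the spindle checkpoint holds anaphase until every kinetochore is attached, and the anaphase-promoting complex with Cdc20 ends the block by marking securin and cyclin B for destruction. Most of these genes are transcribed in G2 and M phase, so their RNA level in a bulk sample moves with the share of cells in those phases. Mouse embryonic stem cells cycle fast with a short G1 phase, and the cycle usually lengthens as they differentiate.

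The cells were mouse embryonic stem cells of 2 genotypes, of a mixed C57BL/6 background, per the labels. The 4 groups, of 2 libraries each, were GLP 3A with retinoic acid (RA), wild type with RA, GLP 3A untreated and wild type untreated. GLP 3A cells are homozygous for a mutant allele of GLP, the histone H3 lysine 9 methyltransferase encoded by Ehmt1; wild-type cells carry no such allele per the labels. RA was 1 uM all-trans RA, and LIF, which keeps stem cells undifferentiated, was withdrawn at the same moment, so RA and LIF withdrawal cannot be told apart. How long RA was applied is not stated in the labels. All cells had been moved from feeders to feeder-free 2i medium for 2 passages. The labels do not say how many clones or cultures stand behind the libraries, and the p-values rest on the spread of these libraries alone, which may be technical. The series has 40 samples, and the 32 chromatin and input samples are not analysed here.

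The files hold no read counts; relative depth, estimated from the steps between low values, was 0.961 to 1.25 in replicate 1 of the 4 groups and 0.436 to 0.572 in replicate 2, so replicate 2 rests on fewer reads in each group. Ehmt1 RNA, which does not show the mutation itself, was 14.1 and 14.3 RPKM in untreated GLP 3A cells, against 18.4 and 17.6 RPKM in untreated wild type. With RA it was 12.96 and 13.92 RPKM in GLP 3A cells, against 24.4 and 23.5 RPKM in wild type. The summed level of 10 stem cell markers was 140 to 380 RPKM in the RA libraries, against 4434 to 5427 RPKM in the untreated ones, and 10 of 10 fell in each genotype. For 10 fibroblast markers, as feeder cells would express, the sum was 83.7 to 124 RPKM with RA, against 5.63 to 6.92 RPKM untreated, with 6 of 7 tested higher in each genotype, and Lum was at 0 in all 4 untreated libraries. The remaining tested fibroblast marker, Thy1, was called lower, with log2 differences of -1.08 in GLP 3A cells and -1.05 in wild type. For 10 markers of extraembryonic endoderm it was 77.2 to 241 RPKM with RA, against 6.44 to 29.0 RPKM untreated, with 4 of 9 tested higher in GLP 3A cells and 6 in wild type; Afp was at 0 in both untreated wild-type libraries. For 9 markers of neurons, which have largely left the cycle, it was 28.6 to 44.8 RPKM with RA, against 211 to 233 RPKM untreated, with 5 of 6 tested lower in each genotype and none of the markers at 0. The remaining tested neuron marker, Dcx, was called higher, with log2 differences of 2.00 in GLP 3A cells and 1.48 in wild type. These marker levels move with RA, as do the mitosis genes, and their part in the results was not tested. In bulk RNA, fewer dividing cells and less RNA per dividing cell cannot be told apart.

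Levels of the mitosis genes spanned a wide range. Per length, the highest members in untreated cells were Ube2c at 233 to 252 RPKM, Ccnb1 at 212 to 234 RPKM, Cdc20 at 178 to 210.3 RPKM, and Top2a at 143 to 194 RPKM. The lowest were Cdc25b and Cdc25c, the Cdc25 phosphatases, at 7.48 to 9.87 RPKM. Cenpe, Cenpf and Kif4, which encode very large or chromatin-bound motor and kinetochore proteins, lay at 13.4 to 21.0 RPKM. Replicates sat close together for most members, as the plot of levels by library shows. Over all 35 members the summed level was 1808 and 1794 RPKM in GLP 3A cells with RA and 2035 and 1960 RPKM in wild type with RA, against 2692 and 2687 RPKM in untreated GLP 3A and 2674 and 2625 RPKM in untreated wild type.

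**Figure D1:**
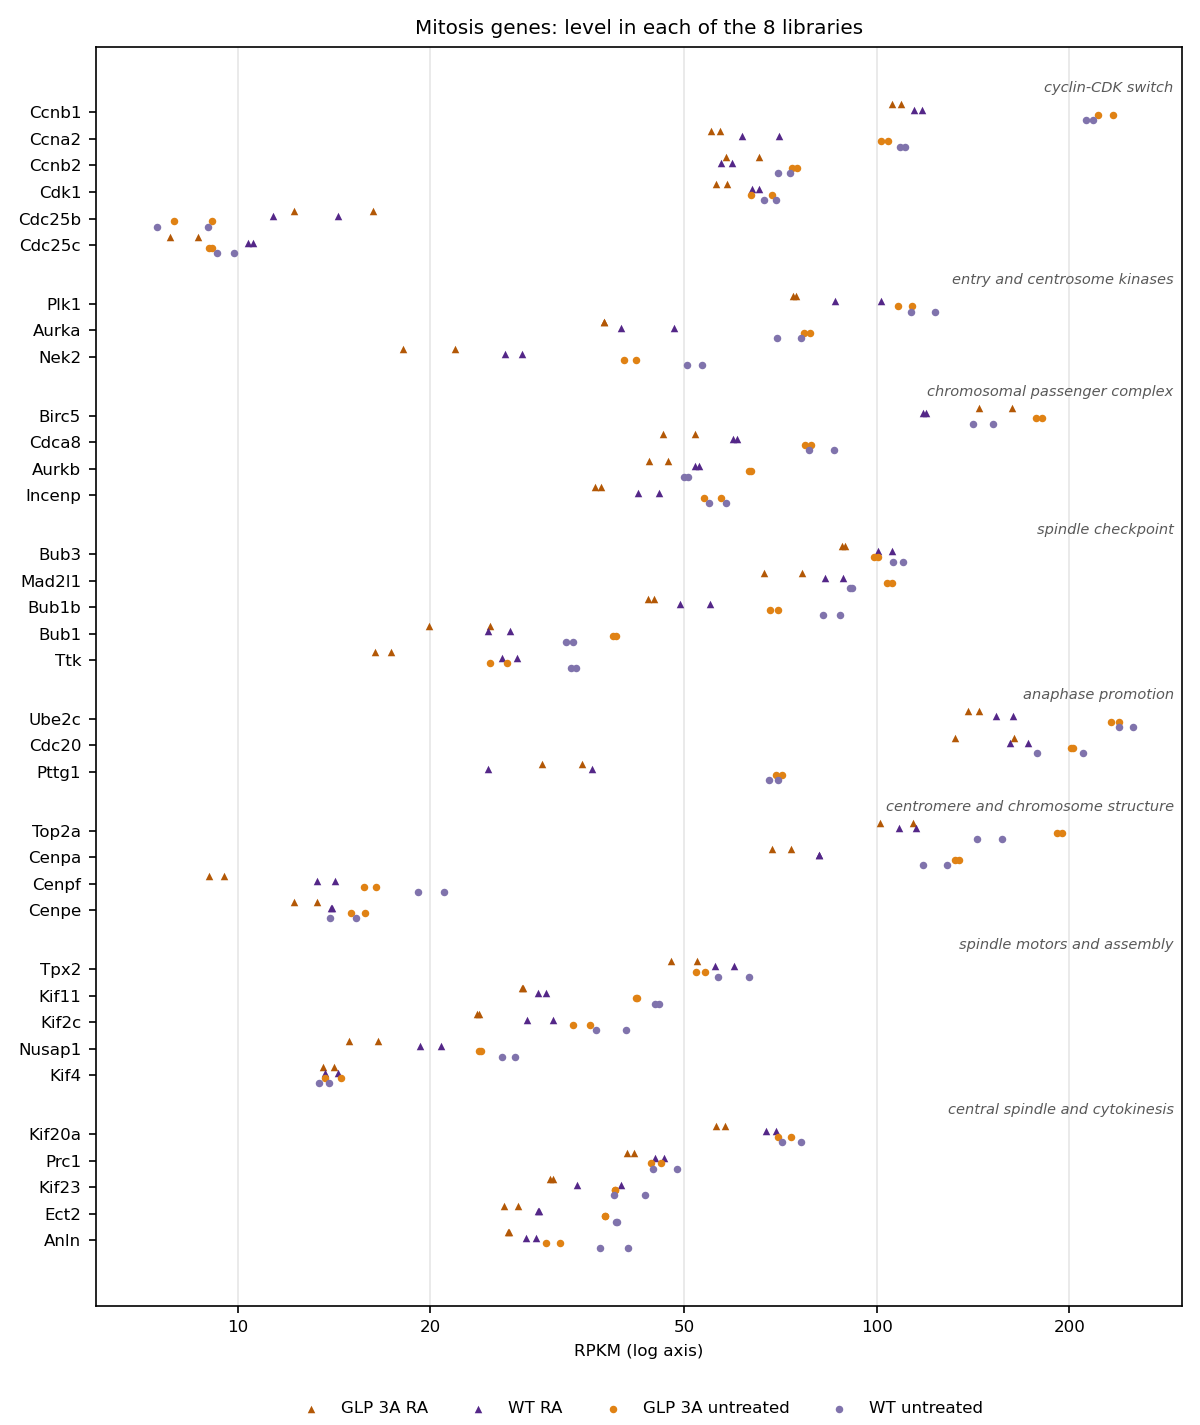
Level of each of the 35 mitosis genes (RPKM as deposited, log axis) in the 8 libraries, grouped by role and ordered by mean level. Triangles are RA and circles untreated libraries, orange GLP 3A and purple wild type; for Ccnb1, Nek2 and Pttg1 all triangles lie left of all circles, while for Kif4 the symbols mix.

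The response to RA was the largest difference that the set showed in RPKM as deposited, with levels compared by limma on log2(RPKM + 1). In GLP 3A cells 30 of the 35 genes fell and 1, Cdc25b, rose, a direction that turns for many of them when libraries are set to equal sums of RPKM (5 lower, 12 higher). The background is high, since 70.4% of all tested genes were called in this comparison, 38.1% lower and 32.3% higher. In wild type 22 fell and 1, again Cdc25b, rose (4 lower and 12 higher with equal sums), where 68.5% of all tested genes were called, 34.8% lower and 33.7% higher. The median log2 difference over the members was -0.55 in GLP 3A cells and -0.35 in wild type, beside -0.07 and -0.03 over all tested genes. Of the 30 genes that fell in GLP 3A cells, 22 also fell in wild type, and no gene fell in wild type alone. The share of all tested genes that fell in both genotypes was not counted, so this overlap cannot be judged against it. The 2 RA comparisons share no library, but both use the same estimate of spread per gene from all 8 libraries. Their calls are therefore not independent. The genes called in GLP 3A cells and not in wild type were Aurkb, Bub3, Cdc20, Cdk1, Cenpe, Kif20a, Kif23 and Mad2l1; of these, the difference between the genotypes passed its own test for Aurkb alone.

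How far the set fell depends on how libraries are put on a common scale. RPKM values summed over all genes to 509341 to 554854 in the RA libraries, against 748556 to 822877 in the untreated ones. Setting these sums equal, as TPM does, moved the median RA difference of all tested genes to 0.47 in GLP 3A cells and 0.37 in wild type. On that scale 5 members were called lower and 12 higher in GLP 3A cells, and 4 lower and 12 higher in wild type, so the direction of the set turned. The calls of all 13198 tested genes turned the same way. In GLP 3A cells 1966 of them were lower and 7356 higher, and in wild type 2202 were lower and 6796 higher. The equal-sums counts of role groups and other lists below have this background. Relative to the median of all genes, the members' median stayed below it, at -0.48 as deposited and -0.39 with equal sums in GLP 3A cells, and at -0.32 and -0.25 in wild type. Under quantile normalization it lay much nearer, at -0.16 in GLP 3A cells and -0.07 in wild type. As a share of the summed RPKM the 35 genes made up 0.355% and 0.3496% in GLP 3A cells with RA and 0.384% and 0.353% in wild type with RA, against 0.327% and 0.348% in untreated GLP 3A and 0.357% and 0.344% in untreated wild type; these shares overlap between RA and untreated libraries. Under quantile normalization 18 members were lower and 5 higher in GLP 3A cells, and 13 lower and 2 higher in wild type. Of all 13198 tested genes, 4564 were lower and 4016 higher in GLP 3A cells on that scale. In wild type 4596 of them were lower and 3971 higher. Genes called lower under each of the 4 scalings (as deposited, median of ratios, quantile and equal sums) were Ccnb1, Aurka, Cenpa, Nek2 and Pttg1 in GLP 3A cells, and Ccnb1, Ccna2, Nek2 and Pttg1 in wild type. The share of all tested genes lower under all 4 was not counted, so these members cannot be set against it. Below, values and calls are those of RPKM as deposited unless another scale is named, and ± after a log2 difference is limma's moderated standard error.

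**Figure D2:**
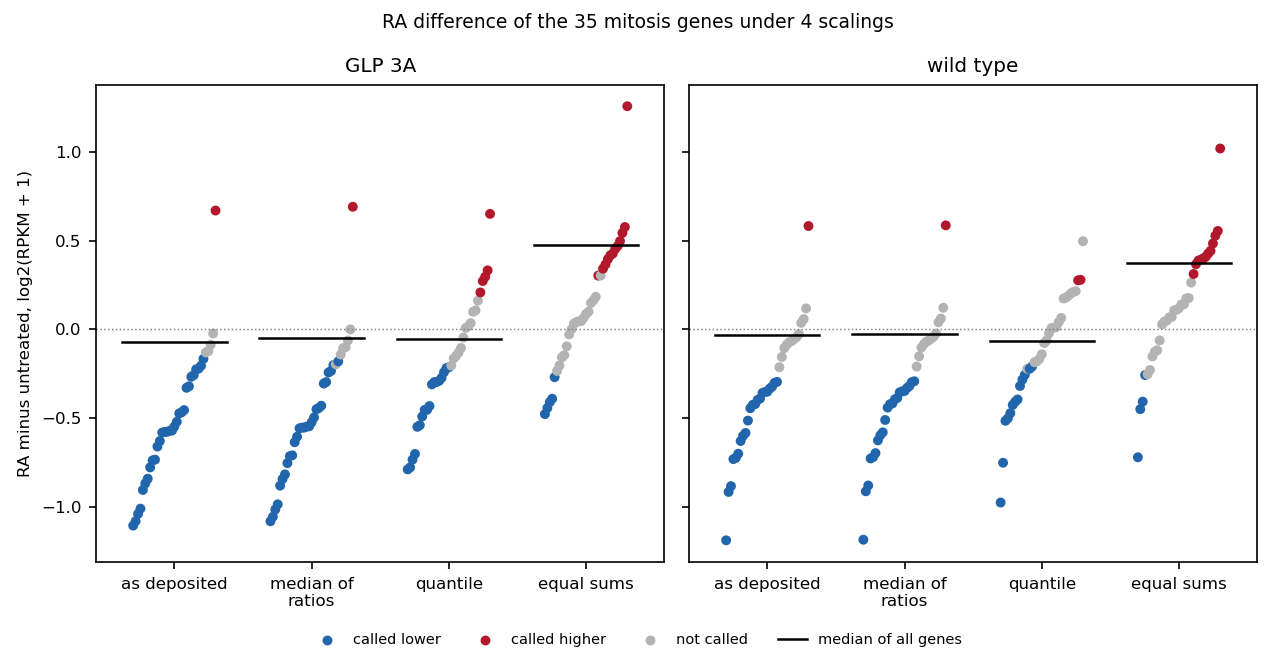
RA minus untreated log2(RPKM + 1) difference of the 35 mitosis genes, sorted within each of 4 scalings, in GLP 3A cells (left) and wild type (right); blue points were called lower, red higher and grey not called, and black lines give the median of all tested genes. With equal sums of RPKM the all-gene median is 0.47 in GLP 3A cells and 0.37 in wild type, and the members' calls turn to 12 higher with 5 lower in GLP 3A cells and 12 higher with 4 lower in wild type.

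Among the genes of the cyclin-CDK switch, 4 of 6 fell and 1 rose in GLP 3A cells, and 3 fell and 1 rose in wild type. With equal sums of RPKM, 1 was lower and 4 were higher in GLP 3A cells, and 2 were lower and 3 higher in wild type. Ccnb1 (chr13:101548693-101556441, mm9), cyclin B1, the main activator of Cdk1 at mitotic entry, was at 109 and 106 RPKM in GLP 3A cells with RA, against 222 and 234 RPKM untreated. Levels in wild type were 118 and 114 RPKM with RA, against 217 and 212 RPKM untreated. The groups are far apart in both genotypes, with RA at 0.474 of the untreated level in GLP 3A cells and 0.543 in wild type on the log2(RPKM + 1) scale. The log2 difference was -1.08 ± 0.06 in GLP 3A cells (adjusted p = 3.19e-05) and -0.88 ± 0.06 in wild type (adjusted p = 6.36e-05), and the call held under all 4 scalings. Ccna2, cyclin A2, which acts in S phase and early mitosis, fell by 0.87 in GLP 3A cells and by 0.73 in wild type on the log2 scale; its locus overlaps Exosc9, and reads could be split between them. Ccnb2, the second B-type cyclin, fell by 0.27 and 0.30, less than Ccnb1 in each genotype by the point estimates, and with equal sums it was 0.37 higher in GLP 3A cells. Cdk1, the kinase itself, had smaller differences than the cyclins, at -0.20 in GLP 3A cells (called) and -0.07 in wild type (not called), and was higher with equal sums, by 0.43 in GLP 3A cells and 0.40 in wild type.

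Of the 2 Cdc25 phosphatases in the set, which activate Cdk1, Cdc25b rose and Cdc25c was not called. Cdc25b (chr2:131012683-131024247, mm9), which acts early at the centrosome, was at 16.3 and 12.3 RPKM in GLP 3A cells with RA, against 9.13 and 7.96 RPKM untreated. Its wild-type values were 14.4 and 11.3 RPKM with RA, against 9.001 and 7.476 RPKM untreated. All 4 RA libraries lay above all 4 untreated ones, and in each group replicate 1 was above replicate 2. The log2 differences were 0.67 ± 0.18 in GLP 3A cells (adjusted p = 0.0136) and 0.58 ± 0.18 in wild type (adjusted p = 0.0241); under quantile normalization the wild-type difference of 0.50 was not called. The call was also lost in GLP 3A cells without untreated replicate 2 (0.58, adjusted p = 0.0752) or RA replicate 1 (0.48, adjusted p = 0.0586), and in wild type without untreated replicate 2 (0.46, adjusted p = 0.126) or RA replicate 1 (0.42, adjusted p = 0.122). Cdc25c, a phosphatase that amplifies Cdk1 activity at entry, was at 7.83 and 8.69 RPKM in GLP 3A cells with RA, against 9.03 and 9.11 RPKM untreated. Wild-type cells had 10.6 and 10.4 RPKM with RA, against 9.87 and 9.28 RPKM untreated. Its differences of -0.12 ± 0.08 in GLP 3A cells and 0.12 ± 0.08 in wild type were not called, and with equal sums both were called higher, at 0.45 and 0.55.

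The 3 entry and centrosome kinases all fell in both genotypes; under equal sums 2 of them were lower in GLP 3A cells and 1 in wild type. Nek2 (chr1:193645351-193656928, mm9), which splits the centrosomes before mitosis, was at 21.9 and 18.2 RPKM in GLP 3A cells with RA, against 42.0 and 40.3 RPKM untreated. Levels in wild type were 27.9 and 26.2 RPKM with RA, against 53.2 and 50.5 RPKM untreated. RA and untreated libraries do not overlap, and within each treatment the GLP 3A libraries lie below the wild-type ones. Nek2 fell by 1.01 ± 0.10 on the log2 scale in GLP 3A cells (adjusted p = 0.000193) and by 0.91 ± 0.10 in wild type (adjusted p = 0.000308), and was lower under all 4 scalings in both. Aurka, Aurora A, the kinase of centrosome maturation and spindle poles, fell by 1.04 ± 0.10 in GLP 3A cells and by 0.72 ± 0.10 in wild type; with equal sums its wild-type difference of -0.25 was not called. Plk1, Polo-like kinase 1, which acts from entry to cytokinesis, was at 73.8 and 74.6 RPKM in GLP 3A cells with RA, against 113 and 108 RPKM untreated. In wild type Plk1 was at 102 and 85.8 RPKM with RA, against 123 and 113 RPKM untreated. Plk1 fell least of the 3, by 0.57 ± 0.10 in GLP 3A cells and 0.33 ± 0.10 in wild type, and its differences were 0.07 and 0.14 with equal sums, neither called.

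Promoters of the 4 members with the largest mean falls are given because cell-cycle genes that peak in G2 and M phase share known promoter elements: CCAAT boxes, bound by NF-Y, and the CHR element (TTTGAA or TTTAAA), bound by the MuvB core of the DREAM and MYBL2 complexes. The windows run from 250 bases before to 50 bases after the RefSeq start (GRCm38.p6) and are written 5′ to 3′ on the gene's strand; capitals mark the matches to the CCAAT box and to both forms of the CHR element on either strand. TTTAAA reads the same on both strands, and no match overlaps another in these windows. Ccnb1 (chr13:100786437-100786736, minus strand) has 2 CCAAT boxes and 1 TTTAAA, Aurka (chr2:172370521-172370820, minus strand) has 2 CCAAT boxes with 1 TTTAAA and 1 TTTGAA, Nek2 (chr1:191821223-191821522, plus strand) has 2 CCAAT boxes, and the Pttg1 window (chr11:43425932-43426231, minus strand) holds none of the 3 motifs.
Ccnb1: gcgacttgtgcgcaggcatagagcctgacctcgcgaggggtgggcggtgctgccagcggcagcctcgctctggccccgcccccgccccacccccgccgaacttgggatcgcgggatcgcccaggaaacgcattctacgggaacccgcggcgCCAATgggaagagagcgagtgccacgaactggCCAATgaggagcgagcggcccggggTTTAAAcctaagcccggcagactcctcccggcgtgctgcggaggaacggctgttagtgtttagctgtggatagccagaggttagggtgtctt
Aurka: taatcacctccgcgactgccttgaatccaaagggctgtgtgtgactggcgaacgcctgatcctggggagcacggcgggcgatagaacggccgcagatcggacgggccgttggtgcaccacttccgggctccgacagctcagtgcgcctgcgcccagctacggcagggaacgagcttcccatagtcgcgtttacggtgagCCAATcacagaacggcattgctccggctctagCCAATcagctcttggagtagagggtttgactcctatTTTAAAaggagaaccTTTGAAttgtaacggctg
Nek2: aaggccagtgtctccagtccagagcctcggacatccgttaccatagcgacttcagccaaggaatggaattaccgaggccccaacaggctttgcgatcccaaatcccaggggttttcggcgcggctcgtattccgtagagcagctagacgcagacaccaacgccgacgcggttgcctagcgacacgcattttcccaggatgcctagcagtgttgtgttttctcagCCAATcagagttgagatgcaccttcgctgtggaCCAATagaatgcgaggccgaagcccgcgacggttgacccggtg
Pttg1: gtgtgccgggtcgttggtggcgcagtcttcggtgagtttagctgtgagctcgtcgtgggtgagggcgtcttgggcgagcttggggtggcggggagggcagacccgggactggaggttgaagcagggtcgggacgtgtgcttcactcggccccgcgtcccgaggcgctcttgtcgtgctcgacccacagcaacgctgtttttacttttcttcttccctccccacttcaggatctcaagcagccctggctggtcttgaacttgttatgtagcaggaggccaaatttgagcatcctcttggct

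Across the set, 29 of the 35 genes matched a RefSeq promoter by symbol. A CCAAT box together with a TTTGAA or TTTAAA stood in 20 of these 29 (69.0%), against 9.01% of the 9258 genes past the filter with a promoter and 12.2% of the 27025 genes of the table. TTTGAA alone was in 20 of 29 (69.0%), against 13.9% of the genes past the filter and 20.2% of the table. CCAAT was in 23 of 29 (79.3%), against 43.5% and 41.1%, and TTTAAA in 8 of 29 (27.6%), against 10.5% and 14.9%. Members with CCAAT plus TTTGAA or TTTAAA had a median RA difference of -0.57 in GLP 3A cells and -0.36 in wild type, beside -0.55 and -0.36 for the 9 matched members without that pair. By TTTGAA or TTTAAA alone, the medians in GLP 3A cells were -0.52 for the 23 members with either and -0.68 for the 6 without, and in wild type -0.36 and -0.37. By TTTAAA they were -0.65 for the 8 members with it and -0.55 for the 21 without in GLP 3A cells, and -0.44 and -0.35 in wild type. Kif4, which did not change as deposited, and Cdk1 and Prc1, with small differences, hold both motifs, while Pttg1 and Nek2, with some of the largest falls, lack TTTGAA and TTTAAA in this window.

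The chromosomal passenger complex, which corrects faulty spindle attachments and later organises cytokinesis, fell in all 4 members in GLP 3A cells and in 3 in wild type; with equal sums 1 member was higher in each genotype and none lower. Cdca8, the borealin subunit, was at 51.9 and 46.2 RPKM in GLP 3A cells with RA, against 78.8 and 77.0 RPKM untreated. Its wild-type values were 60.4 and 59.5 RPKM with RA, against 85.7 and 78.3 RPKM untreated. It fell by 0.66 ± 0.08 in GLP 3A cells and by 0.44 ± 0.08 in wild type on the log2 scale. Incenp, the scaffold, fell by 0.58 and 0.35. Birc5, survivin, fell less, by 0.22 ± 0.08 in GLP 3A cells (adjusted p = 0.0437) and 0.30 ± 0.08 in wild type (adjusted p = 0.0144), and with equal sums it was higher by 0.42 in GLP 3A cells and 0.17 (not called) in wild type. Aurkb, the kinase of the complex, fell by 0.47 ± 0.06 in GLP 3A cells and had a difference of 0.06 ± 0.06 in wild type; its values by library are given with the genotype comparison.

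All 5 spindle checkpoint genes fell in GLP 3A cells and 3 fell in wild type, whereas with equal sums 1 was higher in GLP 3A cells, 2 were higher in wild type and none was lower. Bub1b, BubR1, which holds Cdc20 inactive until kinetochores attach, was at 43.8 and 44.8 RPKM in GLP 3A cells with RA, against 68.0 and 70.1 RPKM untreated. Wild-type cells had 54.8 and 49.1 RPKM with RA, against 87.6 and 82.3 RPKM untreated. RA and untreated libraries stayed apart, with log2 differences of -0.63 ± 0.07 in GLP 3A cells (adjusted p = 0.000451) and -0.70 ± 0.07 in wild type (adjusted p = 0.00031). Bub3, its partner, which carries Bub1 and BubR1 to the kinetochore, moved little. It was at 89.2 and 88.3 RPKM in GLP 3A cells with RA, against 99.0 and 100.4 RPKM untreated, a fall of 0.17 ± 0.06 (adjusted p = 0.0449). Levels in wild type were 100.5 and 106 RPKM with RA, against 106 and 109.8 RPKM untreated, and the difference of -0.07 ± 0.06 was not called. With equal sums and with quantile normalization Bub3 was called higher in both genotypes. Bub1, the kinase that recruits the checkpoint, fell by 0.78 and 0.35, and Ttk, the Mps1 kinase that starts checkpoint signalling, by 0.57 and 0.32. Mad2l1, Mad2, which inhibits Cdc20, fell by 0.55 ± 0.08 in GLP 3A cells and had a difference of -0.09 ± 0.08 in wild type.

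Anaphase promotion held the gene with the largest mean fall of the set, and the 3 members fell in GLP 3A cells and 2 in wild type; with equal sums 1 was lower in each genotype and none higher. Pttg1 (chr11:43233749-43239750, mm9), securin, the inhibitor of separase, was at 29.9 and 34.6 RPKM in GLP 3A cells with RA, against 71.1 and 69.4 RPKM untreated. Its wild-type values were 24.7 and 35.8 RPKM with RA, against 70.1 and 67.7 RPKM untreated. Its replicates with RA lie further apart than the untreated ones, and still well below them. Pttg1 fell by 1.10 ± 0.17 on the log2 scale in GLP 3A cells (adjusted p = 0.00131) and by 1.19 ± 0.17 in wild type (adjusted p = 0.001), under all 4 scalings in both. Ube2c, the ubiquitin-conjugating enzyme that works with the anaphase-promoting complex, fell by 0.73 and 0.63, and with equal sums its differences of -0.10 and -0.15 were not called. Cdc20, the activator of that complex, was at 164 and 132 RPKM in GLP 3A cells with RA, against 201 and 203 RPKM untreated, and fell by 0.45 ± 0.13 (adjusted p = 0.0172). Wild-type cells had 172 and 161 RPKM with RA, against 178 and 210.3 RPKM untreated, and -0.21 ± 0.13 was not called. The Cdc20 locus overlaps Elovl1, so its reads could be split.

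The 4 genes of centromeres and chromosome structure fell in GLP 3A cells and 3 of them in wild type; with equal sums 1 was lower and 1 higher in GLP 3A cells, and none lower and 1 higher in wild type. Cenpa, the histone H3 variant that marks centromeres, was at 68.6 and 73.3 RPKM in GLP 3A cells with RA, against 133 and 134 RPKM untreated. In wild type Cenpa was at 81.0 and 81.1 RPKM with RA, against 118 and 129 RPKM untreated. The fall was 0.90 ± 0.07 on the log2 scale in GLP 3A cells (adjusted p = 8.21e-05) and 0.60 ± 0.07 in wild type (adjusted p = 0.000436). Cenpe, the kinetochore kinesin, was at 12.2 and 13.3 RPKM in GLP 3A cells with RA, against 15.1 and 15.8 RPKM untreated, and fell by 0.26 ± 0.08. Levels in wild type were 14.06 and 13.998 RPKM with RA, against 15.3 and 13.95 RPKM untreated, where the groups overlap and -0.05 ± 0.08 was not called. With equal sums Cenpe was called higher in both, by 0.34 and 0.39. Top2a, topoisomerase II alpha, which untangles sister chromatids, fell by 0.84 and 0.42, and Cenpf, a kinetochore protein of G2 and M phase, by 0.74 and 0.51.

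Of the 5 spindle motors and assembly factors 3 fell in each genotype, and with equal sums 2 were higher in each and none lower. Kif11, Eg5, which pushes the spindle poles apart, was at 27.9 and 27.9 RPKM in GLP 3A cells with RA, against 42.2 and 41.9 RPKM untreated. Its wild-type values were 30.3 and 29.5 RPKM with RA, against 45.6 and 44.9 RPKM untreated. Its response was -0.58 ± 0.06 in each genotype, with a difference of 0.01 ± 0.08 between them that was not called. Kif4, the chromokinesin that works on chromosome arms and the midzone, was at 13.6 and 14.1 RPKM in GLP 3A cells with RA, against 14.5 and 13.7 RPKM untreated. In wild type Kif4 was at 14.3 and 13.7 RPKM with RA, against 13.9 and 13.4 RPKM untreated. All 8 values of Kif4 lie within 13.4 to 14.5 RPKM, the groups overlap, and its differences of -0.02 ± 0.07 and 0.04 ± 0.07 were not called, although with equal sums they were called higher, at 0.58 and 0.48. Tpx2, which activates Aurora A on the spindle, was likewise not called, at -0.09 ± 0.08 in GLP 3A cells and -0.04 ± 0.08 in wild type, and was higher with equal sums. Kif2c, the microtubule-depolymerising motor MCAK, fell by 0.52 and 0.36, and Nusap1, a spindle-binding protein whose locus overlaps Oip5, by 0.58 and 0.39.

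Central spindle and cytokinesis genes had a median response of -0.32 in GLP 3A cells, where 4 of 5 fell, and of -0.15 in wild type, where 2 fell; with equal sums 3 were higher in each genotype and none lower. Ect2, the exchange factor that activates RhoA at the cleavage furrow, was at 26.1 and 27.4 RPKM in GLP 3A cells with RA, against 37.5 and 37.6 RPKM untreated. In wild type Ect2 was at 29.5 and 29.6 RPKM with RA, against 39.1 and 39.3 RPKM untreated. The fall was 0.47 ± 0.06 in GLP 3A cells (adjusted p = 0.000497) and 0.40 ± 0.06 in wild type (adjusted p = 0.00113). Prc1, which bundles the antiparallel microtubules of the midzone, was at 40.7 and 41.7 RPKM in GLP 3A cells with RA, against 46.0 and 44.3 RPKM untreated. In wild type Prc1 was at 46.41 and 44.97 RPKM with RA, against 48.6 and 44.6 RPKM untreated, and neither -0.13 ± 0.07 in GLP 3A cells nor -0.03 ± 0.07 in wild type was called. Kif20a and Kif23, the midzone kinesins MKLP2 and MKLP1, fell in GLP 3A cells by 0.33 and 0.32, while their wild-type differences of -0.11 and -0.15 were not called; the Kif20a locus overlaps Brd8 and Cdc23. Anln, anillin, which scaffolds the contractile ring, fell by 0.22 ± 0.07 in GLP 3A cells and by 0.42 ± 0.07 in wild type.

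**Figure D3:**
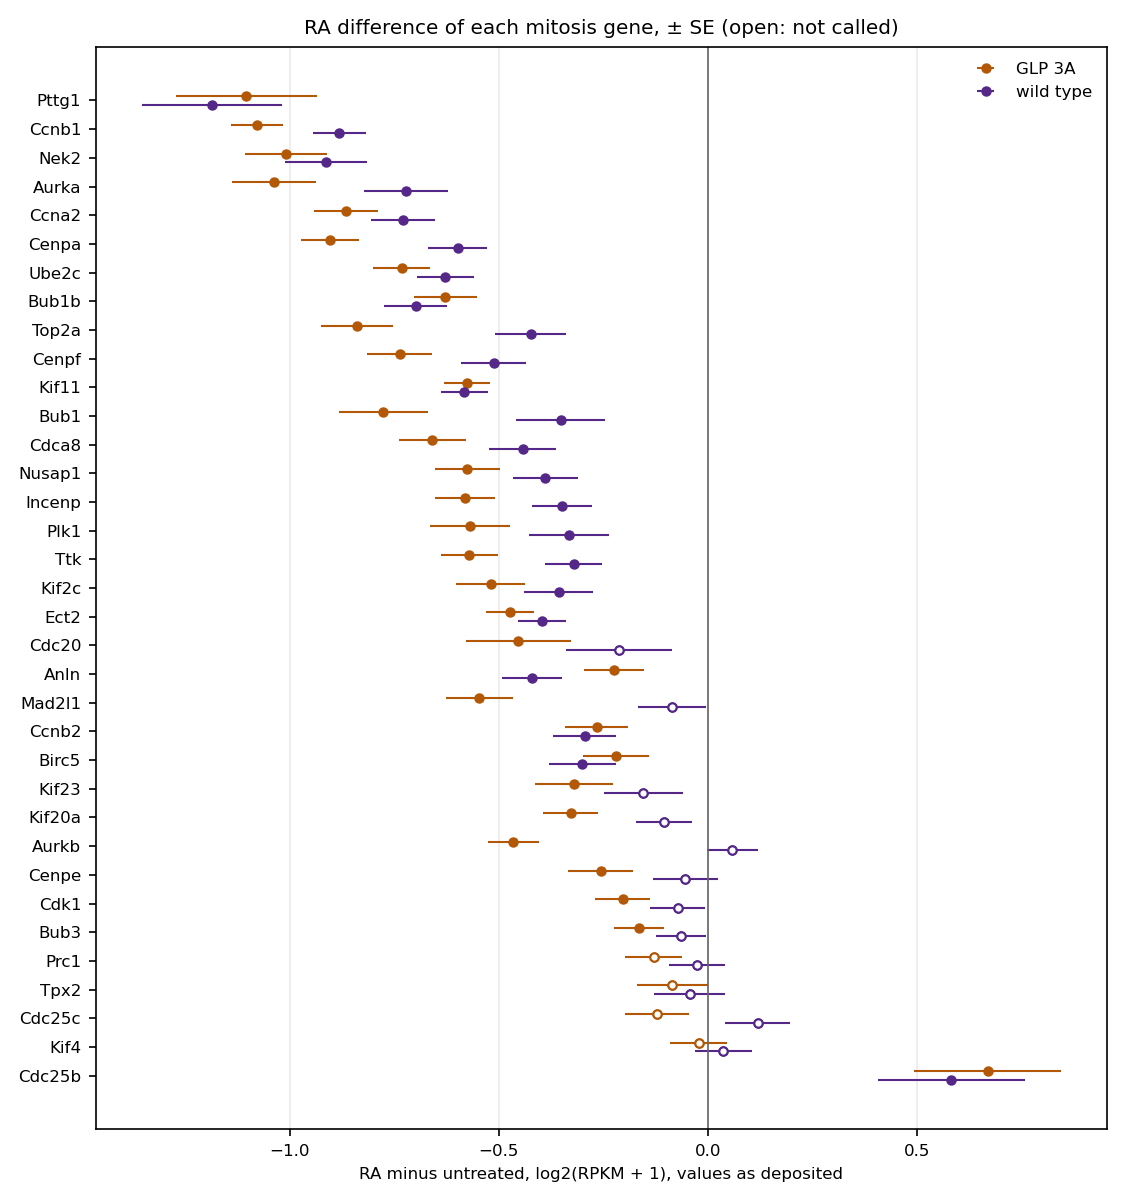
RA minus untreated difference of each mitosis gene on log2(RPKM + 1), values as deposited, with limma's moderated standard error, in GLP 3A cells (orange) and wild type (purple); open symbols were not called. Ccnb1, Nek2 and Pttg1 lie far to the left in both genotypes and are lower under all 4 scalings, Cdc25b lies to the right, and the differences of most others turn or lose their call with equal sums of RPKM.

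The genotype comparison called few of the mitosis genes, in untreated cells at a share near that of all genes. With RA the few calls leaned towards lower in GLP 3A cells. In untreated cells 2 mitosis genes were higher and 2 lower in GLP 3A than in wild type, 4 of 35, where 11.7% of all tested genes were called, 7.52% higher and 4.15% lower. With RA 1 was higher and 4 were lower in GLP 3A, where 10.6% of all tested genes were called, 5.3% higher and 5.31% lower. The members' median was -0.04 untreated, beside 0.04 over all tested genes, and -0.20 with RA, beside -0.01; with RA 31 of the 35 differences were negative and 4 positive, and with equal sums 29 were negative. Since each group had 2 libraries, these calls are fragile. Most were lost in at least 1 fit that left out 1 library, which leaves a group with 1 library. With 1 of the 4 untreated libraries left out in turn, the members' median in the untreated comparison ran from -0.07 to -0.01. The median with RA ran from -0.21 to -0.15 when 1 of the 4 RA libraries was left out. When only the 4 libraries compared were fitted, 10 members were called untreated and 0 with RA, where 11 had an unadjusted p under 0.05. Of all tested genes these fits called 26.1% untreated and 0.114% with RA, so the members' counts moved with those of all genes.

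Ttk (chr9:83728295-83765997, mm9), the Mps1 checkpoint kinase, was lower in GLP 3A cells under both conditions. It was at 24.8 and 26.4 RPKM in untreated GLP 3A cells, against 33.2 and 33.8 RPKM in untreated wild type. With RA it was at 16.4 and 17.4 RPKM in GLP 3A cells, against 25.9 and 27.4 RPKM in wild type. No GLP 3A library reached a wild-type library of the same treatment, and untreated GLP 3A cells had about as much Ttk RNA as RA-treated wild type. The log2 difference was -0.38 ± 0.07 untreated (adjusted p = 0.0211) and -0.63 ± 0.07 with RA (adjusted p = 0.00797). Both calls held under the 4 scalings, and the call with RA held in all 8 fits that left out 1 library, the only genotype call of the set to do so; it was lost when only the 4 RA libraries were fitted (adjusted p = 0.167).

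Anln (chr9:22135657-22193650, mm9) was at 31.9 and 30.4 RPKM in untreated GLP 3A cells, against 40.8 and 36.9 RPKM in untreated wild type, a difference of -0.31 ± 0.07 (adjusted p = 0.0437), lower under all 4 scalings. With RA it was at 26.5 and 26.5 RPKM in GLP 3A cells, against 29.3 and 28.3 RPKM in wild type, and -0.11 ± 0.07 was not called. Nusap1 was at 24.0 and 23.9 RPKM in untreated GLP 3A cells, against 27.2 and 25.9 RPKM in untreated wild type. With RA Nusap1 was at 14.9 and 16.6 RPKM in GLP 3A cells, against 19.3 and 20.8 RPKM in wild type, a difference of -0.33 ± 0.08 (adjusted p = 0.0475) that was not called with equal sums.

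The other genotype calls fell on chromosomes 1 and 11. On these chromosomes the median of all tested genes was shifted between the genotypes. Over the 710 tested genes of chromosome 1 the median GLP 3A minus wild type difference was -0.24 untreated and -0.31 with RA. Over the 1114 of chromosome 11 it was 0.24 under both conditions. Most of these genes were not called. Untreated, 20.8% were lower and 3.52% higher on chromosome 1, and 2.06% lower and 19.7% higher on chromosome 11. The medians of the other chromosomes lay between -0.06 and 0.08. The 2 members on chromosome 1 are Nek2 and Cenpf. Cenpf (chr1:191464492-191511965, mm9) was at 9.51 and 9.02 RPKM in GLP 3A cells with RA, against 14.2 and 13.3 RPKM in wild type with RA, a difference of -0.52 ± 0.08 (adjusted p = 0.0172) that held under all 4 scalings. Untreated it was at 15.7 and 16.5 RPKM in GLP 3A cells, against 21.0 and 19.2 RPKM in wild type, and -0.30 ± 0.08 was not called (adjusted p = 0.0578). Nek2, with the values given above, differed by -0.42 ± 0.10 with RA (adjusted p = 0.0464, but 0.0587 under quantile normalization and 0.0932 with equal sums) and by -0.33 ± 0.10 untreated (adjusted p = 0.0829). Both members thus lie on the same side as their chromosome's median, and the part of that shift in their difference was not tested.

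The 4 members on chromosome 11 are Aurkb, Top2a, Birc5 and Pttg1. Top2a (chr11:98854260-98885503, mm9) was at 191 and 194 RPKM in untreated GLP 3A cells, against 157 and 143 RPKM in untreated wild type, higher by 0.36 ± 0.09 (adjusted p = 0.0469), a call that was lost under each of the 3 other scalings (adjusted p = 0.0673 to 0.143). With RA it was at 101 and 114 RPKM in GLP 3A cells, against 115 and 108 RPKM in wild type, where the groups overlap and the difference was -0.06 ± 0.09. Birc5 (chr11:117710550-117717057, mm9) was at 163 and 145 RPKM in GLP 3A cells with RA, against 119 and 118 RPKM in wild type with RA, higher by 0.37 ± 0.08 (adjusted p = 0.0387) and higher under all 4 scalings. Untreated it was at 181 and 177 RPKM in GLP 3A cells, against 152 and 141 RPKM in wild type, and 0.29 ± 0.08 was not called (adjusted p = 0.0674). Both GLP 3A libraries lay above both wild-type libraries under each condition. Pttg1, on the same chromosome, was not called in either comparison, at 0.03 ± 0.17 untreated and 0.11 ± 0.17 with RA. Outside chromosomes 1 and 11 there are 29 members, of which 2 were lower and none higher in each comparison, by limma in the test over all genes. Their median was -0.06 untreated, beside 0.04 for all tested genes of the same chromosomes, and -0.21 with RA, beside -0.02, with 27 of 29 negative.

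**Figure D4:**
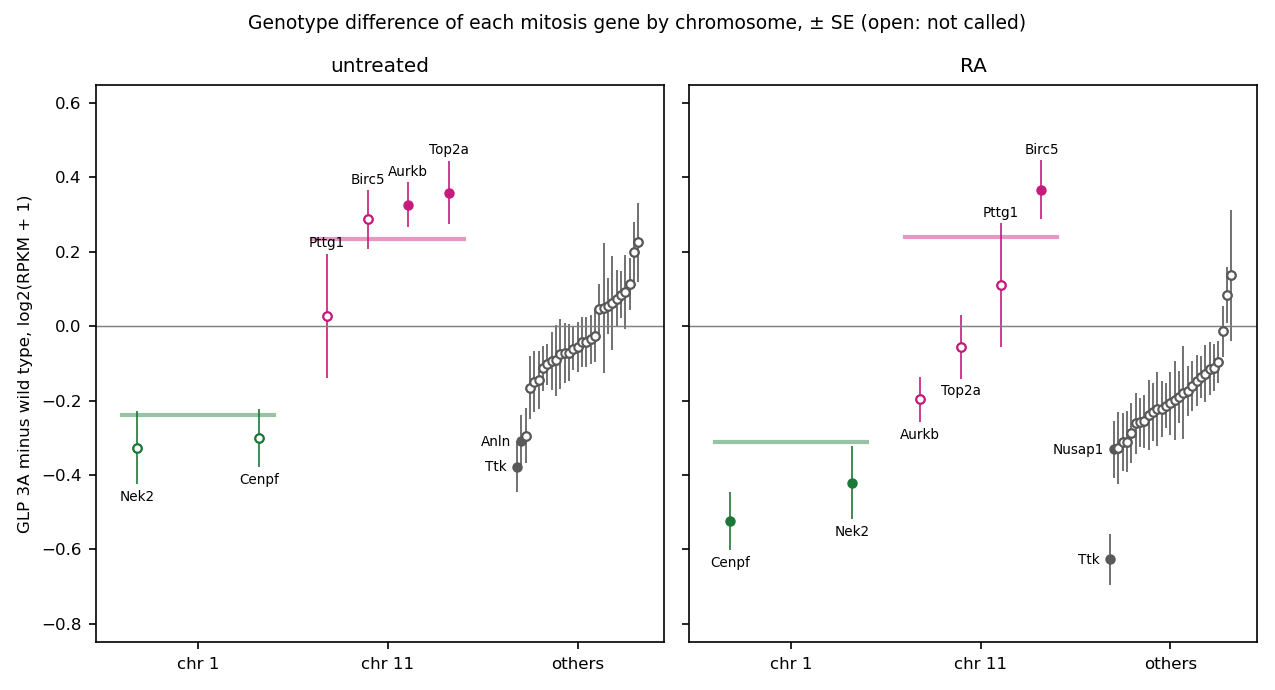
GLP 3A minus wild type difference of each mitosis gene on log2(RPKM + 1), with limma's moderated standard error, in untreated cells (left) and with RA (right), split by chromosome; open symbols were not called, and the coloured lines are the medians of all tested genes of chromosomes 1 and 11. Members on chromosome 1 lie below 0 and Birc5 above it in both panels, Aurkb and Top2a lie above 0 untreated and below 0 with RA, and with RA 27 of the 29 others lie below 0.

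The difference of the RA responses, GLP 3A minus wild type, asks whether the mutant cells respond otherwise than wild type. It was called for 1 of 35 members, Aurkb, where 1.8% of all tested genes were called, 0.561% higher and 1.24% lower. At an unadjusted p under 0.05 there were 6: Aurkb, Bub1, Mad2l1, Cenpa, Top2a and Ttk, each with the more negative response in GLP 3A cells. The share of all tested genes at that unadjusted level, or with the more negative response in GLP 3A cells, was not counted. The response was more negative in GLP 3A cells for 28 of the 35 genes, with a median of -0.17 beside -0.06 over all tested genes; with equal sums it was more negative for 19 genes, with a median of -0.01 beside 0.08. The members' median thus lay 0.10 below that of all genes as deposited and 0.09 below it with equal sums.

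Aurkb (chr11:68859144-68865164, mm9), Aurora B, the kinase that detaches faulty spindle attachments, was at 43.9 and 47.1 RPKM in GLP 3A cells with RA, against 63.5 and 63.0 RPKM untreated. Wild-type cells had 52.6 and 52.0 RPKM with RA, against 49.8 and 50.6 RPKM untreated. Untreated GLP 3A cells thus held the highest values and RA-treated GLP 3A cells the lowest, with both wild-type groups between them. Aurkb was higher in GLP 3A than in wild type before RA, by 0.33 ± 0.06 (adjusted p = 0.0232, but 0.0812 under quantile normalization and 0.0797 with equal sums), and its difference with RA was -0.20 ± 0.06 (adjusted p = 0.0934). Its responses differed by -0.52 ± 0.09 (adjusted p = 0.0463). Across the alternatives tried this adjusted p ranged from 0.0234 to 0.214, and the call held in 1 of the 8 fits that left out 1 library, the one without GLP 3A RA replicate 2. It was lost under quantile normalization and with equal sums, where the difference was -0.38 and -0.36. Next to Aurkb, Mad2l1 was at 66.7 and 76.3 RPKM in GLP 3A cells with RA, against 106 and 104 RPKM untreated, and in wild type at 83.1 and 88.4 RPKM with RA, against 90.8 and 91.3 RPKM untreated. Its responses differed by -0.46 ± 0.11, which was not called (adjusted p = 0.096), nor were the differences of Bub1 and Top2a, both -0.42, or of Cenpa, -0.30.

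Other genes of the division cycle, from lists drawn up by pathway, were read from the same tests, with RA in GLP 3A cells first and wild type second. Of 14 genes of the anaphase-promoting complex 5 fell and 1 rose in GLP 3A cells and 3 fell and 3 rose in wild type; with equal sums 1 was lower and 10 higher in GLP 3A cells and 1 lower and 9 higher in wild type. Fbxo5, Emi1, its inhibitor in S and G2 phase, fell by 1.76 ± 0.06 and 1.35 ± 0.06, under all 4 scalings. Of 19 condensin and cohesin genes 14 and 13 fell and 1 rose in each, against 3 lower and 7 higher, and 5 lower and 4 higher, with equal sums; Wapal, which releases cohesin, fell by 1.42 in GLP 3A cells, and Ncapd3, a condensin II subunit, fell by 1.14 in wild type. Of 26 kinetochore genes 16 and 13 fell, 5 and 7 of them under all 4 scalings, and with equal sums 12 and 7 were higher, while Zwint, a kinetochore scaffold protein, rose by 0.79 ± 0.07 and 0.89 ± 0.07 under all 4, as did Spc25, an Ndc80 complex subunit, in wild type, by 0.41. Of 16 other mitotic kinesins and cytokinesis genes 10 and 11 fell, 1 and 3 of them under all 4 scalings, and with equal sums 7 and 6 were higher; in wild type 2, Ckap2l and Ckap2, rose under all 4, by 0.26 and 0.23, and none rose in GLP 3A cells as deposited. Among those lower under all 4 was Kif18a, a kinesin that dampens chromosome movement, which fell by 0.99 ± 0.07 in GLP 3A cells. Among 9 regulators of Cdk1, 6 fell in each genotype and 1 rose, and with equal sums 1 was lower and 2 were higher; Cdc25a, the third Cdc25 phosphatase, fell by 1.21 ± 0.10 and 0.75 ± 0.10, under all 4 scalings, unlike its relative Cdc25b.

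Transcription factors that act on G2 and M genes moved in both directions. Of 22 tested, 14 fell and 2 rose in GLP 3A cells and 10 fell and 5 rose in wild type; with equal sums 4 were lower and 8 higher in GLP 3A cells and 5 lower and 8 higher in wild type. Mybl2, B-Myb, which joins MuvB at the promoters of mitotic genes, was at 38.2 and 21.2 RPKM in GLP 3A cells with RA, against 269 and 260 RPKM untreated. Levels in wild type were 27.0 and 16.6 RPKM with RA, against 267 and 258 RPKM untreated, and it fell by 3.17 ± 0.31 and 3.57 ± 0.31 on the log2 scale, under all 4 scalings. That is far more than any mitosis gene fell. Rb1, the retinoblastoma protein, rose by 0.92 ± 0.09 and 0.74 ± 0.09 under all 4 scalings.

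Genes of earlier cycle steps give a scale for the mitosis genes. Of 20 S phase genes 19 fell in GLP 3A cells and 17 in wild type, with medians of -0.91 and -0.92. Under all 4 scalings 11 and 12 of them were lower, where the mitosis set had 5 and 4 of 35 lower. Higher with equal sums were 2 and 3 S phase genes, against 12 of the 35 mitosis genes in each genotype. With equal sums the S phase medians were -0.29 and -0.44, while those of the mitosis genes were 0.09 and 0.12. The largest S phase falls were those of Ung, uracil-DNA glycosylase, by 2.15 and 1.92, and of Mcm5, a subunit of the replicative helicase, with log2 differences of -1.37 and -1.24. Of 14 Cdk inhibitors, G1 cyclins and their kinases, 7 rose and 5 fell in GLP 3A cells and 8 rose and 4 fell in wild type, and 7 rose under all 4 scalings in each genotype. Cdkn1c, p57, was at 52.7 and 89.5 RPKM in GLP 3A cells with RA, against 6.91 and 6.69 RPKM untreated, and at 75.8 and 112 RPKM in wild type with RA, against 4.82 and 5.33 RPKM untreated. Cdkn1a, p21, was at 147 and 155 RPKM in GLP 3A cells with RA, against 107 and 113 RPKM in wild type with RA, higher by 0.46 ± 0.07 (adjusted p = 0.0168). Untreated it was at 72.5 and 68.8 RPKM in GLP 3A cells, against 83.0 and 83.2 RPKM in wild type, and its RA responses differed by 0.69 ± 0.09 (adjusted p = 0.031), a call that held under all 4 scalings. Of 12 housekeeping genes often used as references, 8 fell and 3 rose in GLP 3A cells and 7 fell and 3 rose in wild type, with medians of -0.47 and -0.37 as deposited and 0.15 and 0.09 with equal sums. The housekeeping medians thus lay close to those of the mitosis genes on these 2 scales. Under quantile normalization they were 0.13 in GLP 3A cells and 0.09 in wild type, against -0.21 and -0.14 for the mitosis genes.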

How the data were processed

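RNA of 8 libraries was analysed, 2 in each of 4 groups set by the labels' genotype and agent. The authors deposited RPKM values, 1 per symbol with its locus, as the headers show. Build mm9 and the tools Bowtie 0.12.7, SAMtools, TopHat and Cufflinks come from the submitters' processing notes. No source states how reads of overlapping genes were assigned or whether counting used strand. The comparisons used log2(RPKM + 1), which understates changes of low genes, in limma 3.58.1 (R 4.3.3). The model held 4 group means over all 8 libraries, with 4 residual degrees of freedom and an intensity trend. Tests were two-sided, adjusted by Benjamini-Hochberg over the 13198 genes at 1 RPKM or more in at least 2 libraries, and calls needed an adjusted p below 0.05. The step was tested on simulated data.

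Relative depth was the commonest ratio between libraries of values up to 0.05 RPKM, matched within 1.5%, and is an estimate; whole reads were not recovered. Promoters were matched to RefSeq (GRCm38.p6) by symbol; Aurkb, Incenp, Tpx2, Kif20a, Ccna2 and Cdc25c had no entry. Alternatives were a pseudocount of 0.1, no filter, a filter of 5 RPKM, 3 other scalings, no intensity trend, the 4 libraries of a comparison alone, the replicate number as a block, and each library left out; equal sums of RPKM and leaving out chromosomes 1 and 11 were chosen after seeing the data. The members and lists were chosen with earlier results of these data known. All members are named, those called between genotypes or in the difference of responses and the extremes of each role group with every library; from other lists up to 2 called genes per direction were eligible.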

Additional observations from a re-analysis of the deposited data

Results flagged for a closer look

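The RA response of Aurkb differed between the genotypes by a test of the difference itself: GLP 3A minus wild type was -0.52 on the log2 scale (limma, adjusted p = 0.0463), from RA differences of -0.47 in GLP 3A cells and 0.06 in wild type. The call was lost under quantile normalization (adjusted p = 0.102), with equal sums of RPKM (adjusted p = 0.123) and in 7 of the 8 fits that left out 1 library, over which the adjusted p ranged from 0.0234 to 0.214.

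The RA responses of Cdc25c pointed in opposite directions in the 2 genotypes in every library, in RPKM as deposited: both RA libraries lay below both untreated ones in GLP 3A cells and above them in wild type. The responses differed by -0.24 on the log2 scale. With equal sums of RPKM both responses were called higher, at 0.45 in GLP 3A cells and 0.55 in wild type, so the opposite direction did not hold on that scale. The opposite direction itself was not tested; by limma over all genes the adjusted p of the difference was 0.275.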

How the results depend on the processing

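The RA falls depend on the scaling. Of the members called as deposited or on the other scale, the log2 RA differences that turned positive under quantile normalization were, in GLP 3A cells, Ccnb2 0.11, Cdk1 0.16, Bub3 0.30, Cdc20 0.10, Kif20a 0.036, Birc5 0.33, Tpx2 0.27, Prc1 0.21 and Anln 0.0089, and in wild type Plk1 0.013, Bub3 0.28 and Birc5 0.065. With equal sums of RPKM the members' median was 0.09 in GLP 3A cells and 0.12 in wild type, and, again among members called on either scale, those that turned positive were, in GLP 3A cells, Ccnb2 0.37, Cdk1 0.43, Plk1 0.065, Aurkb 0.16, Bub1b 0.0016, Bub3 0.47, Mad2l1 0.087, Cdc20 0.18, Cenpe 0.34, Kif11 0.046, Kif20a 0.30, Kif23 0.30, Kif2c 0.10, Kif4 0.58, Birc5 0.42, Incenp 0.047, Nusap1 0.033, Tpx2 0.54, Prc1 0.50, Ttk 0.041, Ect2 0.15, Anln 0.40 and Cdc25c 0.45, and in wild type Ccnb2 0.18, Cdk1 0.40, Plk1 0.14, Bub1 0.11, Bub3 0.41, Mad2l1 0.39, Cenpe 0.39, Kif20a 0.37, Kif23 0.31, Kif2c 0.11, Top2a 0.051, Birc5 0.17, Incenp 0.12, Cdca8 0.028, Nusap1 0.070, Tpx2 0.43, Prc1 0.44, Ttk 0.14, Ect2 0.068 and Anln 0.044. With members called on neither scale included, 10 of 35 changed sign in each genotype under quantile normalization, and 23 in GLP 3A cells and 21 in wild type with equal sums. In the genotype comparisons 5 members (untreated) and 2 (with RA), and in the difference of responses 9, changed sign with equal sums, each called on neither scale. The cause was not tested.

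Counts of members called moved as follows, by limma. In untreated cells, GLP 3A against wild type, 4 members became 2 under quantile normalization, 2 with equal sums, 2 without the intensity trend, 1 without chromosomes 1 and 11, and 10 with the 4 libraries alone. That last fit called 26.1% of all tested genes. With RA the 5 members became 8 under median-of-ratios scaling, 8 with the replicate block, 3 without a filter, 3 without the trend, 3 with equal sums, 1 without chromosomes 1 and 11, and 0 with the 4 libraries alone, where 11 had an unadjusted p under 0.05. The fit on the 4 RA libraries alone called 0.114% of all tested genes. For RA in GLP 3A cells 31 became 17 with equal sums, where 70.6% of all tested genes were called. For RA in wild type 23 became 15 under quantile normalization, where 64.9% of all tested genes were called. The single call in the difference of responses became 0 with a pseudocount of 0.1, under quantile normalization, with equal sums, without the trend, with the replicate block and without chromosomes 1 and 11; 6, 4, 3, 5, 7 and 4 members then had an unadjusted p under 0.05. With each library left out in turn the members' median ranged over -0.07 to -0.01 (untreated genotype) and -0.21 to -0.15 (genotype with RA). It ranged over -0.56 to -0.52 for RA in GLP 3A cells and -0.39 to -0.30 for RA in wild type. For the difference of responses it was -0.21 to -0.14. Where a group kept 1 library, it was assumed to vary like the others.

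Replicate numbers are shared between groups, but with 2 numbers and no label tying them to a culture or day they were not taken as pairs; deviations of same-numbered libraries correlated at 0.169 to 0.355 over 13198 genes. The replicate block called 8 members with RA between genotypes, and with it the calls of Aurkb in the difference of responses (adjusted p = 0.058) and of Top2a in untreated cells (adjusted p = 0.0567) were lost.

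Limits are the 2 libraries per group, the lower depth of replicate 2, the lack of counts, and a scaling that the files alone do not settle.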
